A study of Drosophila melanogaster with 6 samples.

Results

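The antimicrobial peptide, Toll and Imd genes were followed in brains of adult Drosophila melanogaster with and without mushroom bodies, as 34 genes named by symbol in 3 roles. Members were taken where a probe set was assigned to that gene alone, which left 22 of the 34 genes, on 24 probe sets, among 10844 genes so measured on the array. Of 15 effector peptide genes 7 were measured, of 9 recognition genes 5, and of 10 pathway genes 10. Not measured here were DptA, AttA, AttB, AttC, CecA1, CecC, Dro and BomS1 among the effectors, and PGRP-SA, PGRP-SD, PGRP-LC and GNBP1 among the recognition genes.

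The ablated group was 3 arrays (ablated 4, 5 and 6) of brains from CantonS females, a wild-type strain, whose mushroom bodies had been removed with hydroxyurea. Newly hatched larvae had received this inhibitor of DNA synthesis in yeast paste at 25 mg/ml for 4 h and were then returned to standard food until adulthood. The control group was 3 arrays (control 1, 2 and 3) of CantonS female brains with no treatment, and all flies were kept at 25 °C. Mushroom bodies are brain centres of olfactory memory. Only the ablated flies had the drug, so whatever else hydroxyurea did and what the ablation did cannot be told apart. Age beyond the adult stage and the number of brains per array are not given in the labels, and separate cultures are not stated. The p-values therefore rest on a spread between arrays that may be technical.

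In Drosophila, peptidoglycan of bacteria and glucans of fungi are sensed by PGRP and GNBP proteins. The Toll pathway starts from a protease cascade that cleaves Spätzle, the ligand of the Toll receptor, and ends in the NF-κB factors Dorsal and Dif. The Imd pathway passes through the adaptor Imd and ends in the NF-κB factor Relish. Both drive secreted peptides, made in large amounts by the fat body after infection and at lower levels by other tissues, glia of the head among them.

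Median intensity per array was between 13 and 14.8 in ablated and between 14.2 and 17.6 in control brains, with control 1 the most intense array and ablated 5 the least. Over 8381 probe sets tested, the median log2 difference between ablated and control brains was -0.17, and the differences below are best read relative to it. The targeted tissue was checked with ey, a Pax6 gene of Kenyon cells, the intrinsic neurons of the mushroom body. Its intensity was 109 ± 11.04 (SD, n = 3) in ablated and 220 ± 41.9 (SD, n = 3) in control brains, with no overlap between the groups and a log2 difference of -0.99 (SE 0.18, adjusted p = 0.554 in limma). All 10 tested Kenyon cell markers had a difference below 0, but so had 7 of 8 neuronal markers and most probe sets. Of all tested probe sets, 25.9% had a difference above 0. The Kenyon cell median was -0.40 and the neuronal one -0.18. In whole brains, fewer cells of a type and less RNA per cell cannot be told apart. All 8 measured neuronal and all 9 measured glial markers were bright enough to be tested.

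No member passed the test for a difference between ablated and control brains. Of the 22 measured genes, 14 had a mean intensity of at least 9.2, the 40th percentile of all probe sets, and entered the fit. All 14 also reached 9.2 in the control mean. The fit (limma, Benjamini-Hochberg over all tested probe sets, threshold 0.05) called 0 members in either direction, as it called 0 of all probe sets higher and 0 lower (0% each). The smallest adjusted p of any probe set was 0.554. At an unadjusted p under 0.05 there was 1 member lower, against 7.89% of all probe sets lower, and 0 members higher, against 0.632% of all higher.

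**Figure D1:**
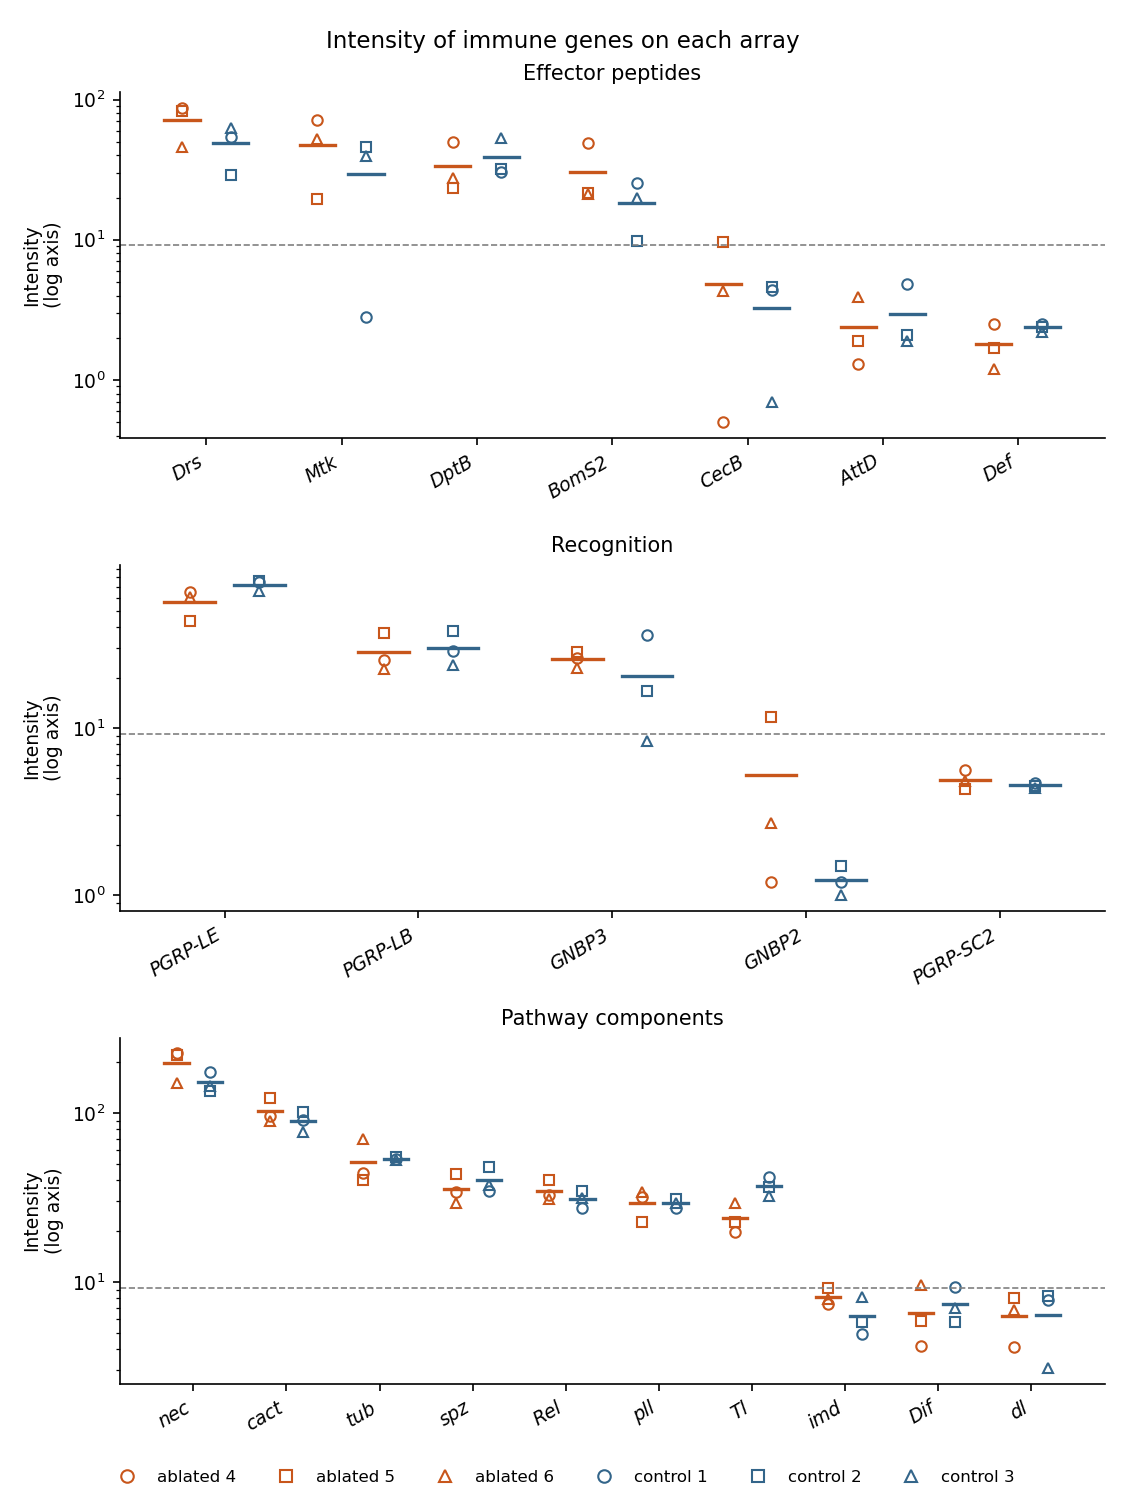
Deposited intensity (vertical log axis) of each measured member, ablated arrays in orange at the left and control arrays in blue at the right of each gene, in 3 panels by role. Short bars are group means, the dashed line is the level of 9.2 needed for testing, and the groups overlap for all 14 tested genes but Tl and PGRP-LE.

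Of the effector peptides, the transcripts of Drs, Mtk, BomS2 and DptB were measured above the level for testing. For each of them the range within the ablated group was wider than the difference between the group means. Drs encodes Drosomycin, an antifungal peptide and a classical Toll target. It read 87.4, 82.4 and 45.7 on ablated 4, 5 and 6, against 54.2, 29.1 and 62.8 on control 1, 2 and 3. The arrays ablated 4 and 5 lay above all controls, while ablated 6 lay below control 1 and 3. For Drs the log2 difference was 0.55 (SE 0.32, 95% interval -0.17 to 1.27, adjusted p = 0.577 in limma). It was 0.24 without control 2 and 0.83 without ablated 6.

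Mtk encodes Metchnikowin, a proline-rich peptide active against fungi and Gram-positive bacteria. Its intensity was 71.7, 19.4 and 52.0 on ablated 4, 5 and 6, against 2.80, 45.7 and 39.4 on control 1, 2 and 3. The single low reading of control 1 carried the difference between the means. On the log2 scale Mtk differed by 1.0 (SE 0.76, 95% interval -0.72 to 2.72, adjusted p = 0.639 in limma), and without control 1 it was -0.011.

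BomS2 belongs to the Bomanins, short secreted peptides that depend on Toll and are needed to survive fungal and Gram-positive infection. Its intensity was 49.1, 21.5 and 21.1 on ablated 4, 5 and 6, against 25.5, 9.80 and 19.9 on control 1, 2 and 3. Ablated 4 was far above all other arrays, and the other 2 ablated arrays lay between control 3 and control 1. For BomS2 the log2 difference was 0.63 (SE 0.38, 95% interval -0.23 to 1.5, adjusted p = 0.580 in limma). It was 0.27 without ablated 4.

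DptB encodes Diptericin B, a peptide against Gram-negative bacteria that is under Imd control. Its intensity was 50, 23.4 and 27.6 on ablated 4, 5 and 6, against 30.6, 31.9 and 53.5 on control 1, 2 and 3. One array in each group, ablated 4 and control 3, stood above the others. DptB had a log2 difference of -0.21 (SE 0.31, 95% interval -0.90 to 0.48, adjusted p = 0.799 in limma).

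The other 3 effectors had means under 9.2 and were not tested. CecB, a cecropin gene, ranged from 0.50 to 9.70 on ablated and from 0.70 to 4.60 on control arrays. AttD, the attacin without a secretion signal, ranged from 1.30 to 3.90 on ablated and from 1.90 to 4.80 on control arrays. Def, the gene of Defensin, ranged from 1.2 to 2.5 on ablated and from 2.2 to 2.5 on control arrays. At such intensities no order of the arrays can be read.

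As a group, 3 of the 4 tested effectors had a log2 difference above 0, against 25.9% of all tested probe sets. Their median was 0.59, against -0.17 over all probe sets. Markers of 2 other tissues had higher medians, at 0.78 for 7 tested muscle and 2.09 for 6 tested antennal and taste organ genes. Lower medians were found for 10 tested fat body genes (0.13), 12 tested blood cell genes (-0.084) and 5 tested gut genes (-0.088). The part of these tissues in the effector values was not tested. In the control mean all 4 effectors reached the level for testing, but only 6 of the 7 muscle and 3 of the 6 antennal genes. The remaining muscle and antennal genes entered the fit only through the ablated arrays, so both tissue medians depend in part on the filter. With ablated 4 and control 2 both left out, an alternative chosen after the values were seen, the effector median was -0.00045. For Drs and BomS2 these were the highest and the lowest array, so a fall was built in and nothing is concluded from it. Over all 7 measured effectors, with no filter, the median was 0.22.

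**Figure D2:**
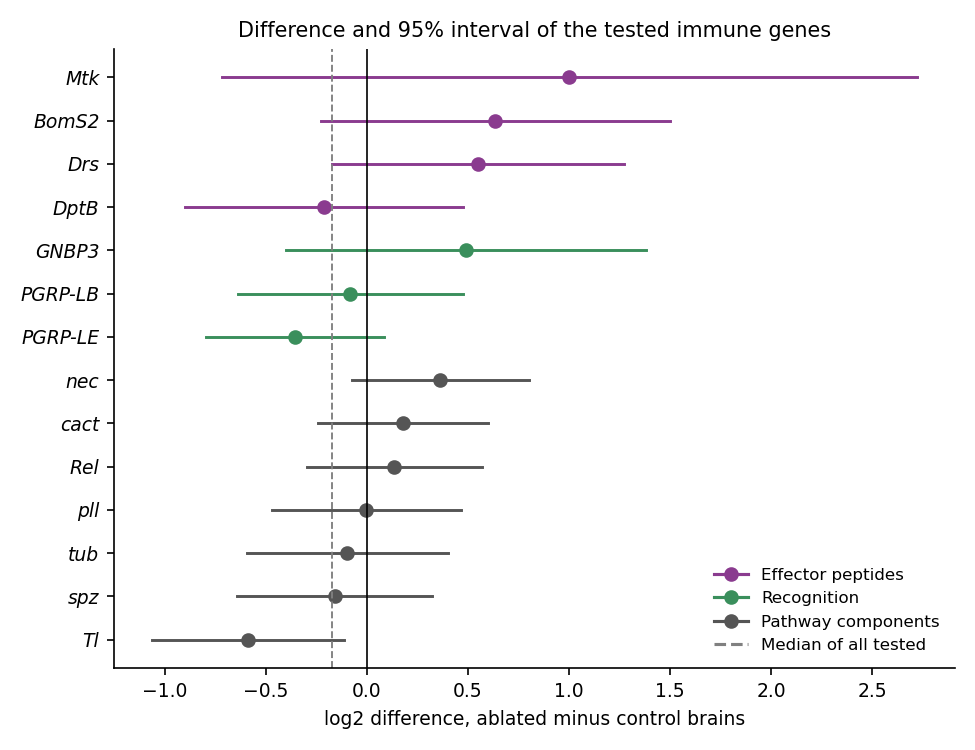
Log2 difference between ablated and control brains (horizontal axis) of the 14 tested members, with 95% intervals from limma, by role. The dashed line marks the median of all tested probe sets, -0.17. Every interval but that of Tl includes 0, and Tl did not pass after adjustment.

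Further peptide genes varied among the arrays much as the members did. Of 25 listed genes outside the members 11 were measured and 9 tested, and 0 passed in either direction (smallest adjusted p 0.554 in limma). All 9 had a difference above 0, against 25.9% of all tested probe sets, with a median of 0.50. Most of the 9 are Bomanins, which are not independent readings, as described below. Together with BomS2, 7 Bomanin genes were tested, and the pattern described next was noticed after their values were seen. The Bomanin genes other than BomS2, BomBc2 and BomS6 were likewise named after that. The gene BomBc3 read 204, 23.1 and 22.2 on ablated 4, 5 and 6, against 53.1, 13.3 and 49.7 on control 1, 2 and 3. Ablated 4 was the only array above 100, and the other 2 ablated arrays lay below control 1 and 3.

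BomBc2 had the smallest p of this list. Its intensity was 137, 65.7 and 48.0 on ablated 4, 5 and 6, against 64.6, 16.4 and 40.2 on control 1, 2 and 3. Ablated 4 and, narrowly, ablated 5 lay above all controls, ablated 6 lay below control 1, and the log2 difference of BomBc2 was 1.04 (SE 0.47, adjusted p = 0.554 in limma). BomS6, the next by p, read 110, 96.8 and 59.9 on ablated 4, 5 and 6, against 88.6, 40.6 and 48.0 on control 1, 2 and 3. Its log2 difference was 0.60 (SE 0.31, adjusted p = 0.560 in limma), with ablated 6 below control 1.

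Ablated 4 was also the highest array for BomS5 and BomT2. BomS5 read 160, 38.9 and 43.5 on ablated 4, 5 and 6, against 75.7, 40.6 and 71.4 on control 1, 2 and 3. BomT2 read 84.9, 46.5 and 29.5 on ablated 4, 5 and 6, against 60.6, 25.2 and 40.5 on control 1, 2 and 3. BomT3 was as high on control 1 as on ablated 4, at 50.3 on both.

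Of the 7 tested Bomanins, 6 were highest on ablated 4, against 8.52% of all tested probe sets, and the seventh was tied there. Lowest on control 2 were 6 of 7, against 9.78% of all, and 5 of 7 had both extremes, against 1.34% of all. Of the tested members outside the Bomanins, Drs and nec were also highest on ablated 4 and lowest on control 2. The Bomanins are close relatives in sequence, and 5 of the 7 lie in 1 cluster on chromosome arm 2R and the other 2 side by side on 3R, so they are not independent readings. All 7 had a log2 difference above 0, against 25.9% of all, with a median of 0.50, yet 0 of 7 had groups that did not overlap. Without ablated 4 the median was 0.079 with 4 of 7 above 0, and without control 2 it was 0.067 with 4 of 7 above 0. It was 0.88 without control 1, 0.50 without control 3, 0.52 without ablated 5 and 0.83 without ablated 6. In each of these fits 7 of 7 were above 0. With ablated 4 and control 2 both left out, an alternative added later, the Bomanin median was -0.27 with 2 of 7 above 0. For most Bomanins these were the highest and the lowest array, so a fall was built in and nothing is concluded from it.

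**Figure D3:**
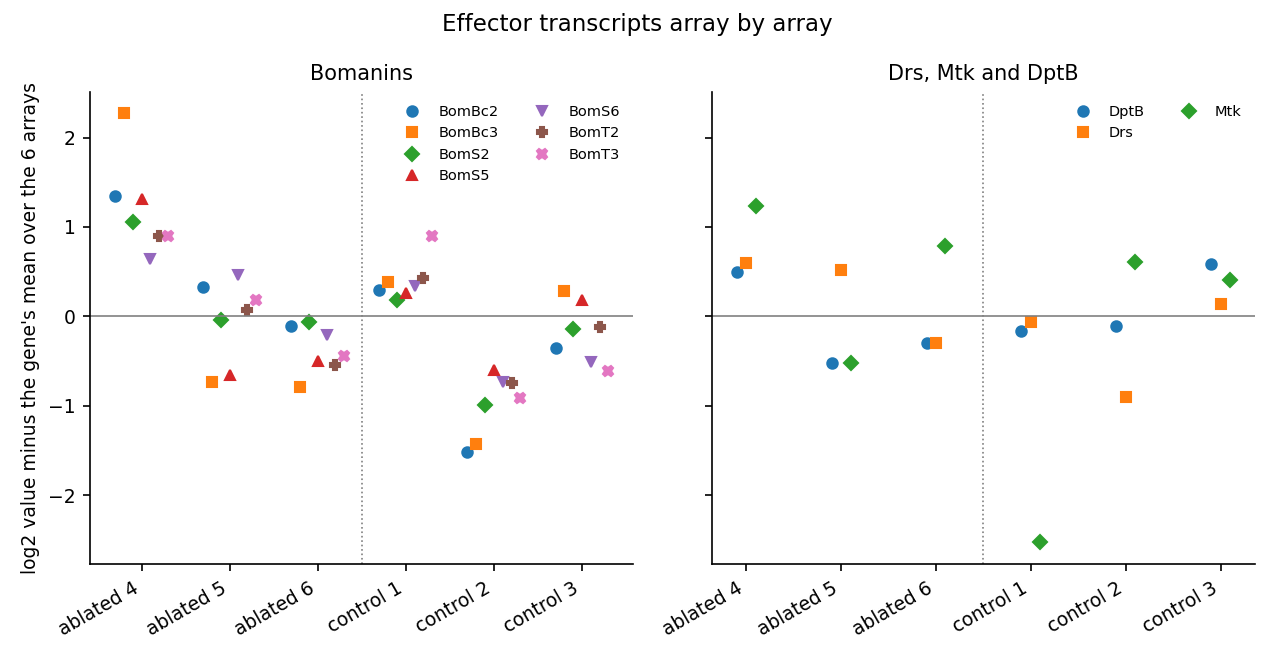
Log2 value of each tested Bomanin (left) and of Drs, Mtk and DptB (right) minus that gene's mean over the 6 arrays, with ablated arrays left of the dotted line and control arrays right of it. All 7 Bomanins are above their mean on ablated 4 and below it on control 2.

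Neither array stood apart in overall intensity, with a median of 14.8 on ablated 4 and 14.8 on control 2. The actin ratio of 3′ to 5′ signal, a reading of RNA and labelling quality, was 12.5 on ablated 4 and 12.99 on control 2, the lowest of the 6 arrays, against 14.5 to 19.4 on the others. The same ratio of Gapdh was 9.37 on ablated 4 and 7.18 on control 2. On the others it was 7.12 on ablated 6, 10.5 on ablated 5, 12.7 on control 3 and 13.04 on control 1. The part of RNA quality in the effector values was not tested. The tested effector members had a median fold of 4.01 between their highest and lowest array, against 1.75 for recognition members, 1.64 for pathway members and 1.82 for all tested probe sets. Their standard deviation within groups had a median of 0.57 on the log2 scale, against 0.33 for recognition, 0.22 for pathway members and 0.28 for all tested probe sets. Of the 4 effectors 3 varied over 3-fold between arrays, as did 1 of 3 recognition members and 0 of 7 pathway members, against 17.2% of all tested probe sets with a mean between 10 and 100. Of these effectors Drs was at the cut, with a fold of 3.003, and the fold of 25.6 for Mtk rested on 1 reading of 2.80 on control 1.

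The fat body is the main source of such peptides, and its transcripts were present on every array. Of 15 fat body markers 12 were measured, and their summed intensity was 17016, 20861 and 16573 on ablated 4, 5 and 6, against 26774, 15161 and 11889 on control 1, 2 and 3. The yolk protein genes Yp1, Yp2 and Yp3 carried most of these sums. Without them the other 9 markers summed to 1627, 2189 and 1761 on ablated 4, 5 and 6, against 3686, 1317 and 1134 on control 1, 2 and 3. With or without them the highest sum was on control 1. Of the fat body markers 10 were tested and 0 passed. Their median log2 difference was 0.13, against -0.17 over all tested probe sets, and 8 of 10 were above 0, against 25.9% of all. Of 18 blood cell markers 17 were measured, summing to between 969 and 1262 on ablated and between 972 and 1169 on control arrays. Of these markers 12 were tested, and NimC2, PPO1 and, named after its values were seen, Hml were lower on each ablated than on any control array, with adjusted p = 0.554 each in limma. These are 3 of 12, against 14.8% of all tested probe sets, while 5 of the 12 had a difference above 0 and the median of the 12 was -0.084. No marker of either list was listed at 0, and their part in the effector values was not tested.

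The recognition members differed in sign, and none passed the test. PGRP-LE encodes a sensor of bacterial peptidoglycan that also works inside cells. It read 65.5, 43.5 and 60.5 on ablated 4, 5 and 6, against 74.5, 76.2 and 65.7 on control 1, 2 and 3. Every ablated array lay below every control array, though ablated 4 and control 3 were nearly equal. PGRP-LE had a log2 difference of -0.36 (SE 0.20, 95% interval -0.80 to 0.087, adjusted p = 0.568 in limma). It was -0.19 without ablated 5 and -0.15 after cyclic loess.

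GNBP3 encodes a receptor of fungal glucans that acts upstream of Toll. It read 26.3, 28.6 and 22.7 on ablated 4, 5 and 6, against 36.1, 16.6 and 8.40 on control 1, 2 and 3. The ablated arrays were close together and within the range of the controls. For GNBP3 the log2 difference was 0.49 (SE 0.40, 95% interval -0.40 to 1.38, adjusted p = 0.654 in limma), and it was 0.057 without control 3.

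PGRP-LB encodes an amidase that degrades peptidoglycan and so restrains Imd signalling. It read 25.5, 37.1 and 22.6 on ablated 4, 5 and 6, against 28.8, 37.8 and 23.7 on control 1, 2 and 3. The groups covered almost the same range, and the log2 difference of PGRP-LB was -0.082 (SE 0.25, 95% interval -0.64 to 0.48, adjusted p = 0.914 in limma).

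PGRP-SC2, another amidase gene, and GNBP2 had means under 9.2 and were not tested. PGRP-SC2 ranged from 4.3 to 5.6 on ablated and from 4.4 to 4.7 on control arrays. GNBP2 read 1.2, 11.7 and 2.7 on ablated 4, 5 and 6, against 1.0 to 1.5 on the control arrays. Only its reading on ablated 5 exceeded 9.2, and no order of the arrays is read at such intensities. The median difference of the 3 tested recognition members was -0.082, against -0.17 over all tested probe sets. Above 0 was 1 of 3, against 25.9% of all, and above the median of all were 2 of 3.

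Among further recognition genes 4 of 8 listed were measured and 2 tested, and 0 passed. PGRP-SB1, an amidase gene, read 38.7, 35.8 and 48.5 on ablated 4, 5 and 6, against 69.0, 8.40 and 50.3 on control 1, 2 and 3. Control 2 was its lowest array, as for 6 of the Bomanins. The log2 difference of PGRP-SB1 was 0.32 (SE 0.57), and that of PGRP-LA was -0.24 (SE 0.25), with adjusted p = 0.843 and 0.727 in limma.

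The pathway components varied least within groups of the 3 roles, and the receptor gene Tl had the smallest p among them. It read 19.7, 22.6 and 29.2 on ablated 4, 5 and 6, against 42.0, 36.3 and 32.4 on control 1, 2 and 3. Every ablated array lay below every control array, as it did for 14.8% of all tested probe sets. The log2 difference of Tl was -0.59 (SE 0.21, 95% interval -1.06 to -0.11, adjusted p = 0.554 in limma), which is -0.41 from the median of all. With each array left out in turn it lay between -0.73 and -0.47, and under the other scalings, offsets and filters between -0.62 and -0.42. Of all 14 tested members, Tl and PGRP-LE were the 2 whose ablated arrays all lay under the controls, a share close to the 14.8% of all. None of the 14 had every ablated array above every control array, against 1.26% of all.

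Upstream of the receptor are its ligand and a serpin. The ligand gene spz read 33.9, 43.7 and 29.4 on ablated 4, 5 and 6, against 34.7, 48.1 and 37.3 on control 1, 2 and 3. The log2 difference of spz was -0.16 (SE 0.21, adjusted p = 0.784 in limma), close to the median of all probe sets. The gene nec encodes Necrotic, a serpin that holds back the protease cascade toward Spätzle. It read 225, 219 and 151 on ablated 4, 5 and 6, against 176, 135 and 145 on control 1, 2 and 3. Only ablated 6 fell within the control range, and the log2 difference of nec was 0.36 (SE 0.19, 95% interval -0.074 to 0.80, adjusted p = 0.568 in limma).

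Below the receptor, the adaptor gene tub and the kinase gene pll differed little. The gene tub read 43.8, 40.3 and 70.0 on ablated 4, 5 and 6, against 53.4, 54.7 and 52.4 on control 1, 2 and 3. The controls were within a narrow range and the ablated arrays lay on either side of them (log2 difference -0.096, SE 0.22, adjusted p = 0.884 in limma). The better measured probe set of pll read 31.6, 22.7 and 34.0 on ablated 4, 5 and 6, against 27.3, 31.0 and 29.1 on control 1, 2 and 3 (log2 difference -0.0026, SE 0.21, adjusted p = 0.999 in limma). A second probe set of pll averaged 4.13 ± 4.42 on ablated and 4.17 ± 2.07 on control arrays (SD, n = 3 each) and was not tested.

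The inhibitor gene cact encodes the IκB protein that holds Dorsal and Dif in the cytoplasm and is itself a Toll target. It read 95.4, 122 and 89.1 on ablated 4, 5 and 6, against 90.9, 101 and 77.3 on control 1, 2 and 3. The groups overlapped, and the log2 difference of cact was 0.18 (SE 0.19, 95% interval -0.24 to 0.60, adjusted p = 0.722 in limma). It was 0.047 without ablated 5, 0.079 without control 3 and 0.27 without ablated 6. Rel, the gene of Relish, read 32.6, 39.8 and 31.1 on ablated 4, 5 and 6, against 27.5, 34.6 and 31.2 on control 1, 2 and 3. Its log2 difference was 0.14 (SE 0.19, 95% interval -0.30 to 0.57, adjusted p = 0.796 in limma).

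The other NF-κB genes and the Imd adaptor were dim and not tested. The gene dl (Dorsal) averaged 6.30 ± 1.998 in ablated and 6.37 ± 2.84 in control brains, and Dif averaged 6.57 ± 2.76 in ablated and 7.37 ± 1.78 in control brains (SD, n = 3 each). The brighter probe set of imd averaged 8.17 ± 0.929 in ablated and 6.27 ± 1.65 in control brains, and the dimmer one 3.17 ± 3.58 in ablated and 1.10 ± 0.985 in control brains (SD, n = 3 each). For each of these genes the groups overlapped. The median log2 difference of the 7 tested pathway members was -0.0026, against -0.17 over all tested probe sets. Above 0 were 3 of 7, against 25.9% of all, and above the median of all were 6 of 7. The pathway median was 0.14 after quantile normalization and 0.17 after cyclic loess.

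Of 37 other Toll pathway genes 32 were measured and 21 tested, and 0 passed in either direction. Their median difference was -0.14, close to that of all probe sets, with 7 of 21 above 0, against 25.9% of all. The protease genes SPE and psh lay on opposite sides of 0. SPE, the enzyme that cleaves Spätzle, read 68.2, 49.2 and 46.7 on ablated 4, 5 and 6, against 40.4, 38.6 and 33.5 on control 1, 2 and 3. All ablated arrays were above all controls, and the log2 difference of SPE was 0.50 (SE 0.20, adjusted p = 0.554 in limma).

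Persephone, a protease that reacts to microbial proteases and the one that Necrotic holds back, is encoded by psh. It read 7.8, 4.4 and 9.1 on ablated 4, 5 and 6, against 16.3, 14.6 and 14.2 on control 1, 2 and 3. All ablated arrays were below all controls and below 9.2, so that psh entered the fit only through the controls (mean 7.1 in ablated and 15.0 in control brains), and its difference is given as a description, at -0.89 on the log2 scale. Named after their values were seen, the serpin gene Spn88Ea was the other gene of this list with every ablated array above every control (0.22, SE 0.17), which makes 2 of 21, against 1.26% of all tested probe sets. The receptor gene Toll-7, also named after its values were seen, was the other with every ablated array below, and it too entered the fit only through the controls, with a mean of 7.73 in ablated and 12.9 in control brains.

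Of 27 other genes of Imd signalling and its regulators 22 were measured and 16 tested, and 0 passed in either direction. Their median difference was -0.11, with 5 of 16 above 0, against 25.9% of all tested probe sets. The Jun kinase gene bsk, which acts on a branch of the pathway, read 402, 337 and 463 on ablated 4, 5 and 6, against 615, 622 and 548 on control 1, 2 and 3. The groups did not overlap, and the log2 difference of bsk was -0.58 (SE 0.15, unadjusted p = 0.00315 and adjusted p = 0.554 in limma). The gene key, which encodes the regulatory subunit of the IκB kinase complex, had no overlap either, at 45.6 ± 7.501 in ablated and 61.2 ± 3.73 in control brains (SD, n = 3 each), a log2 difference of -0.41 (SE 0.18, adjusted p = 0.554 in limma). The deubiquitinase gene CYLD, named after its values were seen, was the third of this list with every ablated array below every control (-0.33, SE 0.30). These are 3 of 16, against 14.8% of all tested probe sets.

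**Figure D4:**
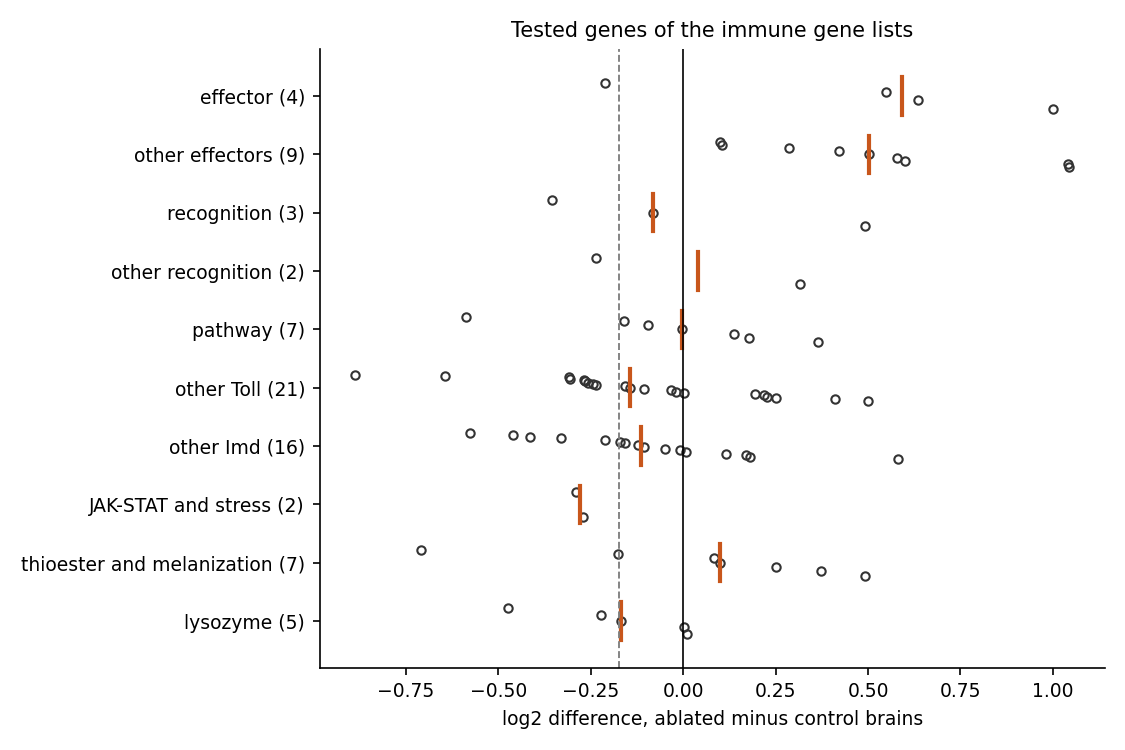
Log2 difference between ablated and control brains (horizontal axis) of each tested gene in 10 lists of immune genes, 1 point per gene, with the number tested in brackets. Orange bars are list medians and the dashed line the median of all tested probe sets, and the effector lists have the highest medians, 0.59 and 0.50.

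Neighbouring defence systems gave 0 calls as well. The thioester and melanization list had 7 tested genes of 13 listed, with a median of 0.10. In it PPO1, a prophenol oxidase gene of blood cells, averaged 41.0 ± 15.3 in ablated and 66.2 ± 14.6 in control brains (SD, n = 3 each), with no overlap and a log2 difference of -0.71 (SE 0.29, adjusted p = 0.554 in limma). Sp7, a protease gene of melanization, averaged 46.9 ± 12.0 in ablated and 34.9 ± 1.401 in control brains (SD, n = 3 each), with no overlap in the other direction and a log2 difference of 0.37 (SE 0.21, adjusted p = 0.568 in limma). JAK-STAT was represented by dome and Stat92E, its receptor and transcription factor genes, at -0.29 (SE 0.23) and -0.27 (SE 0.30), with overlapping groups and adjusted p = 0.645 and 0.733 in limma. A second, dimmer probe set of Stat92E averaged 7.6 ± 3.60 in ablated and 13.2 ± 1.31 in control brains (SD, n = 3 each) with no overlap, having reached the level for testing only through the controls.

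Markers of tissues other than brain were high on some arrays. Muscle markers, with 12 of 14 measured, summed to between 434 and 1380 on ablated and between 270 and 850 on control arrays. Antennal and taste organ markers, with 8 of 13 measured, summed to 158, 1403 and 196 on ablated 4, 5 and 6, against 90.7 to 96.4 on the control arrays. Gut markers, with 10 of 12 measured, summed to between 95.2 and 138 on ablated and between 88.4 and 185 on control arrays. Of the tested genes, 6 of 7 muscle and 5 of 6 antennal markers had a difference above 0, against 25.9% of all probe sets. Higher at an unadjusted p under 0.05 in limma were 4 of the 6 antennal ones, against 0.632% of all probe sets. Their smallest adjusted p in limma was 0.554. In the control mean only 6 of the 7 muscle and 3 of the 6 antennal markers reached the level for testing. The others entered the fit only through the ablated arrays, so these counts depend in part on the filter. The muscle and antennal sums were highest on ablated 5 and the gut sum on control 1, and the part of these tissues in the values of the members was not tested.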

How the data were processed

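Whole-brain RNA of 6 samples was hybridised to 1-colour arrays. The authors deposited linear intensity values, 1 for each probe set on each array, computed with MAS5 per the submitters' processing notes. Its settings are not given in the sources. The trimmed means of the arrays (2% off each end) were between 37.3 and 49.3, so the values had not been brought to 1 level, and they were used as deposited. Of 14010 probe sets 44 are Affymetrix controls and were left out. Of the other 13966, 12443 had 1 gene, 327 several and 1196 none in the platform annotation, and symbols were updated through RefSeq gene identifiers for 12394. The highest-mean probe set stood for each gene.

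An offset of 2.7, the 20th percentile of all values, was added before taking log2, which understates differences of dim genes. The fit used limma 3.58.1 under R 4.3.3 (eBayes with an intensity trend, two-sided, no covariates) over probe sets with a mean of at least 9.2. This code was tested on simulated data. Alternatives covered scaling, offset, filter, variance model, probe set choice and each array left out. The number of arrays limits the precision. Members and lists were chosen with earlier results of these data known, so lists carry no test of their own. All members are named, and from other lists up to 2 genes each by p where none passes. Others are said to be named after their values were seen.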

Additional observations from a re-analysis of the deposited data

How the results depend on the processing

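No member passed limma's test under any of the alternatives, and over all probe sets 0 were called higher and 0 lower under each planned one, with the smallest adjusted p between 0.0815 and 0.881. With ablated 4 and control 2 both left out, chosen after the values were seen, 1 probe set, which the platform annotation assigns to 2 genes, neither of them a member, was called higher (adjusted p = 0.0465). The effector median was then -0.00045, against 0.59 with all arrays, and BomS2 stood at -0.073, PGRP-LB at 0.14 and tub at 0.0081. For Drs and BomS2 the arrays left out were the highest and the lowest, so their fall was built in. With 1 array left out the effector median lay between 0.27 and 0.83, the recognition median between -0.23 and 0.081 and the pathway median between -0.045 and 0.047. The pathway median was 0.14 after quantile normalization and 0.17 after cyclic loess. The scaling moved the median of all probe sets to -0.064 with median-centred arrays, -0.024 after quantile normalization and 0.0028 after cyclic loess. Of 210 planned values for the 14 tested members, 18 had the opposite sign, in 6 genes whose difference was small or, for Mtk and DptB, hung on 1 array. In the order of these 3 scalings PGRP-LB was 0.027, 0.059 and 0.087, pll 0.11, 0.14 and 0.17, and tub 0.014, 0.069 and 0.10, while spz was 0.023 after cyclic loess and pll 0.00047 with an offset of 10. With 1 array left out Mtk lay between -0.011 and 1.56, DptB between -0.51 and 0.031, PGRP-LB between -0.27 and 0.081, pll between -0.11 and 0.16, and tub between -0.33 and 0.049. Averaging a gene's tested probe sets left all values as they were, since each of the 14 members had 1 such probe set. The 8 members that kept their sign had the following ranges with 1 array left out. Drs lay between 0.24 and 0.83, BomS2 between 0.27 and 0.88, PGRP-LE between -0.47 and -0.19 and GNBP3 between 0.057 and 0.96. Tl lay between -0.73 and -0.47, cact between 0.047 and 0.27, Rel between 0.037 and 0.21 and nec between 0.26 and 0.55. After cyclic loess PGRP-LE was -0.15, Tl -0.42, cact 0.39, Rel 0.31 and nec 0.57, all outside these ranges. Drs, BomS2 and GNBP3 stayed inside theirs. No paired analysis was possible because the groups share no replicate numbers. The cause of these shifts was not tested. With 3 arrays a group the interval of Mtk runs from -0.72 to 2.72 and that of Drs from -0.17 to 1.27, and dim members below 9.2 have no order.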

Other observations

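A few further defence genes were prominent on other arrays than the Bomanins, and they were picked after their values were seen. Drsl5, a relative of Drs, read 26.4, 235 and 34.5 on ablated 4, 5 and 6, against 33.3, 26.3 and 25.5 on control 1, 2 and 3. Listericin, an antibacterial peptide gene, read 6.80, 76.4 and 2.30 on ablated 4, 5 and 6, against 7.60, 19.2 and 2.30 on control 1, 2 and 3. Both were highest on ablated 5, where the antennal markers summed to 1403 and the muscle markers to 1380, also their highest, and the part of these tissues was not tested. IM33, an immune-induced peptide gene, read 784, 1109 and 528 on ablated 4, 5 and 6, against 1254, 894 and 333 on control 1, 2 and 3, so that its highest array was control 1, that of the highest fat body sum, and its lowest control 3, that of the lowest.

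Gene order in RefSeq (Release 6) sets the Bomanins on the array into runs of neighbours. On 2R, BomS4, BomBc2 and BomS2 follow each other directly, as do BomT2, BomS5 and BomS6, with 1 gene between the runs. On 3R, BomT3 and BomBc3 are adjacent. The dim member of the 2R cluster, BomS4, read between 6.10 and 7.20 on ablated and between 3.50 and 8.60 on control arrays. Lysozyme genes, enzymes found mostly in the gut, had 5 tested members with a median difference of -0.17. Among them LysC stood at -0.47 (SE 0.24, adjusted p = 0.555 in limma) and LysD at -0.22 (SE 0.21, adjusted p = 0.702 in limma), measured by probe sets of a sequence family that its members may share.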
